A study of Mus musculus with 6 samples.

Results

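The 8 genes followed here, which belong to the receiving side of Notch signalling, were measured on the 6 arrays of the series: the receptor genes Notch1, Notch2 and Notch3, the fringe glycosyltransferase genes Lfng, Mfng and Rfng, the DNA-binding factor gene Rbpj and the protease gene Adam10. They were chosen by gene symbol in the probe annotation, with the brightest probe set per gene over the 6 arrays, and all 8 were found among 19937 genes measured. Every group consisted of Thy1.2+ cells, purified magnetically from thymi of Rag1-/- mouse embryos at stage E17.5. Fresh cells (Control-0h, n = 2) were taken directly from the thymus and were neither cultured nor stimulated. The vehicle group (Control-DMSO-40h, n = 2) had 40 h with anti-CD3 and DMSO, and the compound group (79-6-40h, n = 2) had 40 h with anti-CD3 and 50 µM 79-6, an inhibitor of the transcriptional repressor Bcl6. The series design describes the stimulated material as fetal thymus organ cultures. All cells lack Rag1, so they cannot rearrange T cell receptor genes, and without stimulation they stop at the double-negative stage. Antibody to CD3 stands in for the missing pre-T cell receptor, and no group was cultured without it. The labels do not say whether replicates were separate litters or cultures, or how many embryos went into each, and the p-values therefore measure the spread between these arrays alone, which may be technical.

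Notch receptors are single-pass membrane proteins that are cut after a ligand of the Delta or Jagged family on a neighbouring cell pulls on them. Adam10 makes the ligand-dependent cut outside the membrane, gamma-secretase then releases the intracellular domain, and this domain binds Rbpj on DNA and turns a repressor complex into an activator. Fringe enzymes add N-acetylglucosamine to O-fucose on the receptor's extracellular repeats and so change which ligands it responds to. In the thymus, Notch1 activated by Dll4 on epithelial cells commits progenitors to the T lineage, Notch3 is itself a target of Notch1 in early thymocytes, and Notch activity falls as cells pass beta-selection.

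Values are log2 of the deposited intensities, so that a difference of 1 is a 2-fold difference. Median array intensity ran from 99.3 to 103.6 on the linear scale, replicate arrays correlated at 0.997 to 0.998 across genes and arrays of different groups at 0.979 to 0.995. Genes were tested with limma in one fit of all 6 arrays, and a gene is called where its Benjamini-Hochberg adjusted p over the 19937 genes was under 0.05. Of 12 T-lineage markers measured, 10 had mean log2 values in fresh cells from 10.35 (Cd247) to 13.79 (Il2ra), among them Thy1 at 12.80, while Cd5 stood at 7.55 and Cd2 at 6.72, near or below the median of all gene means (7.13). Values of different probe sets depend on their probes, so levels of different genes are described but not tested against each other.

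**Figure D1:**
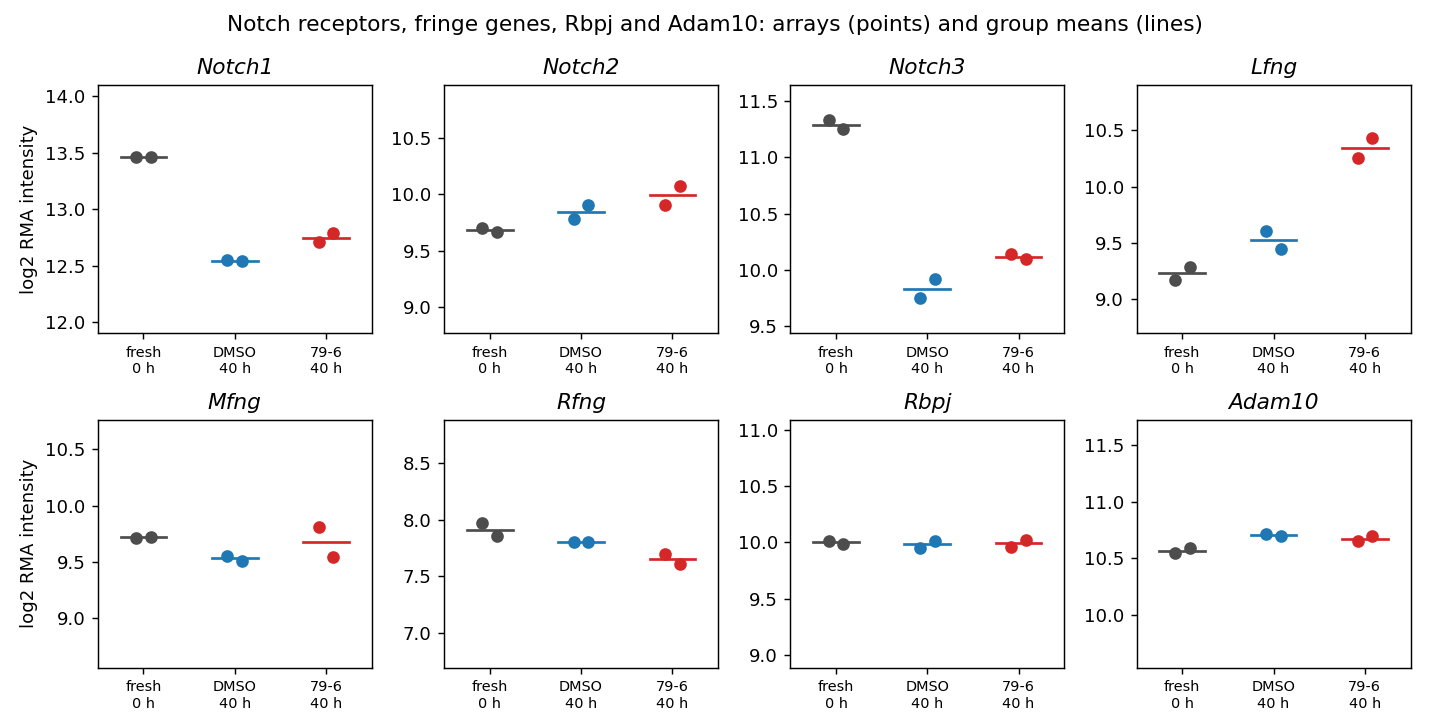
The log2 RMA intensity of each of the 8 genes (vertical axis, each panel spanning the same range) is plotted by group, with a point for each array and a line at the mean of 2 arrays. Notch1 and Notch3 were lower on all 4 cultured arrays than on both fresh arrays, Lfng was highest on the 79-6 arrays, and Rbpj lay between 9.95 and 10.02 throughout.

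Fresh cells were first set against the DMSO cultures, to see what 40 h of stimulated culture changed before the compound is considered. Notch1 and Notch3 fell, and none of the other 6 genes passed the threshold. That is 2 of 8 genes called, against 19.6% of all genes called in this comparison (10.7% lower and 8.89% higher), so the number called was near the background. The median change of the 8 genes was -0.06, against 0.02 for all genes tested.

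Notch1, the receptor that drives T-lineage commitment, stood at 13.47 and 13.46 on the fresh arrays, at 12.55 and 12.54 on the DMSO arrays, and at 12.71 and 12.79 on the 79-6 arrays. The fresh arrays were the highest, the DMSO arrays the lowest, and no group overlapped another. From fresh to DMSO it fell by 0.92 ± 0.07 (SE, n = 2 per group; 95% interval -1.09 to -0.76; adjusted p = 0.000187 by limma), which left 52.8% of the fresh intensity. The call held with each of the 6 arrays left out in turn, with adjusted p-values of up to 0.00309.

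Notch3, the paralog that Notch1 signals induce in thymocytes, fell further. It read 11.33 and 11.25 on the fresh arrays, 9.75 and 9.92 on the DMSO arrays, and 10.14 and 10.09 on the 79-6 arrays. Again the 3 groups did not overlap, in the order fresh, 79-6, DMSO. From fresh to DMSO this was a change of -1.46 ± 0.08 (SE, n = 2 per group; 95% interval -1.65 to -1.26; adjusted p = 5.54e-05 by limma), which left 36.5% of the fresh intensity. With any 1 array left out the change lay between -1.54 and -1.37 and stayed called. Within arrays, Notch3 lost 0.53 more than Notch1 on the log2 scale, with SDs of the difference of 0.06 (fresh) and 0.12 (DMSO), and the groups did not overlap. The exact permutation test of that difference gave a two-sided p of 0.333, which is the smallest that 2 against 2 arrays allow (0.417 after adjustment over the 15 differences between genes that were tested).

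The promoters of these 2 genes are shown because the genes fell together. Each run holds the 250 bases before the annotated start on the gene's strand, 5′ to 3′, from RefSeq on build GRCm38.p6. Notch1 is on the minus strand at chr2:26503823-26504072 and Notch3 on the minus strand at chr17:32166891-32167140.
Notch1: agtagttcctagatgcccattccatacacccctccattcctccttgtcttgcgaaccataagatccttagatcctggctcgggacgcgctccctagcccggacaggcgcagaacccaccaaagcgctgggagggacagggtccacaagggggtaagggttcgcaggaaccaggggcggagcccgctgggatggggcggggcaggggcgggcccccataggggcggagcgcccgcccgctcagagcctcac
Notch3: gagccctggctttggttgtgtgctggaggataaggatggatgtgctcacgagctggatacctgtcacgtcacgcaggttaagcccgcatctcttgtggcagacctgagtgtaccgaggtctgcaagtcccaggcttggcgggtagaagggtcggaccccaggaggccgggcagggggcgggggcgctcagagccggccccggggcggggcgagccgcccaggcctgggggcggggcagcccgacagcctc
Both strands were searched for TGGGAA, the core that Rbpj recognises, for its longer form GTGGGAA, which contains it, and for TTCCTNGAA, a sequence of the type that Bcl6 binds. None of the 3 occurs in either window, so no base is in capitals. Over the same 250 bases of 32851 RefSeq promoters, TGGGAA occurred in 21.6%, GTGGGAA in 5.42% and TTCCTNGAA in 1.31%. GC content was 66.0% for Notch1 and 68.8% for Notch3, against a median of 52.4% over all promoters. The windows of the other genes with a promoter entry ran from 65.2% (Rbpj) to 75.6% (Rfng), so high GC content was not particular to this pair.

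Notch2, the receptor better known from B cell and myeloid development, did not follow its paralogs. It was 9.71 and 9.66 on the fresh arrays, 9.78 and 9.90 on the DMSO arrays, and 9.91 and 10.08 on the 79-6 arrays. The fresh arrays were the lowest, and the groups did not overlap, although the highest DMSO array and the lowest 79-6 array nearly met. The change from fresh to DMSO was 0.16 (95% interval -0.04 to 0.36; adjusted p = 0.275 by limma). Within arrays Notch2 and Notch1 drew apart by 1.08 (SD 0.03 in fresh and 0.09 in DMSO; exact permutation p = 0.333, the smallest possible).

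Of the fringe genes none was called from fresh to DMSO. Lfng read 9.17 and 9.29 on the fresh arrays and 9.61 and 9.44 on the DMSO arrays, a change of 0.30 (95% interval 0.07 to 0.53; adjusted p = 0.0775 by limma). These groups did not overlap, and the change was called with arrays set to 1 median (0.34, adjusted p = 0.0362), with dim genes left out (adjusted p = 0.0418) and with a trended, robust variance prior (adjusted p = 0.0314), while in the other 10 alternatives the adjusted p lay between 0.0634 and 0.327. Mfng read 9.71 and 9.72 on the fresh arrays and 9.55 and 9.51 on the DMSO arrays, a change of -0.18 (95% interval -0.41 to 0.04). Rfng was 7.97 and 7.86 on the fresh arrays and 7.81 and 7.80 on the DMSO arrays, a change of -0.11 (95% interval -0.29 to 0.07). Both were thus lower on each DMSO array than on each fresh array, by amounts that did not pass the test (adjusted p = 0.256 and 0.397 by limma).

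Rbpj, through which all Notch receptors act on DNA, moved least. Its arrays read 10.01 and 9.99 (fresh), 9.95 and 10.02 (DMSO), and 9.96 and 10.02 (79-6), so that all groups overlapped. The 95% interval of its change from fresh to DMSO ran from -0.18 to 0.15, which leaves room for a change of up to about that size and none as large as that of Notch1. A dimmer probe set of Rbpj, at 5.01 and 5.08 in fresh, 4.92 and 4.95 in DMSO, and 4.80 and 4.99 in 79-6, was not called either (adjusted p = 0.547 over 34760 probe sets by limma). The other 7 genes had 1 probe set each. Adam10 read 10.54 and 10.59 on the fresh arrays, 10.71 and 10.70 on the DMSO arrays, and 10.65 and 10.69 on the 79-6 arrays. It was slightly higher on every cultured array, by 0.14 in DMSO (95% interval -0.02 to 0.30; adjusted p = 0.226 by limma).

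The 79-6 cultures were then set against the DMSO cultures, to see what the Bcl6 inhibitor changed at the same time of stimulation. Lfng rose, and it was the 1 of 8 genes called, against 4.36% of all genes in this comparison (2.38% higher and 1.98% lower). The median change of the 8 genes was 0.15, against 0.02 for all genes. DMSO arrays are the reference here and the end point of the first comparison, so the changes of a gene in the 2 comparisons are not independent.

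Lfng is the fringe enzyme best known for strengthening the response of thymocyte Notch1 to Delta-like ligands. From 9.61 and 9.44 on the DMSO arrays it went to 10.25 and 10.43 on the 79-6 arrays, which were the highest of the series. The rise was 0.82 ± 0.10 (SE, n = 2 per group; 95% interval 0.59 to 1.04; adjusted p = 0.00926 by limma), or 1.76-fold. The call was lost without DMSO replicate 2 (0.73, adjusted p = 0.0787) or 79-6 replicate 2 (0.72, adjusted p = 0.0615), and when all 34760 probe sets were tested (adjusted p = 0.0734). In the other alternatives the adjusted p lay between 0.000592 and 0.0454.

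The Lfng promoter is shown because Lfng was the gene called with 79-6. It lies on the plus strand at chr5:140607091-140607340 (GRCm38.p6, RefSeq), and capitals mark TGGGAA on either strand and GTGGGAA.
Lfng: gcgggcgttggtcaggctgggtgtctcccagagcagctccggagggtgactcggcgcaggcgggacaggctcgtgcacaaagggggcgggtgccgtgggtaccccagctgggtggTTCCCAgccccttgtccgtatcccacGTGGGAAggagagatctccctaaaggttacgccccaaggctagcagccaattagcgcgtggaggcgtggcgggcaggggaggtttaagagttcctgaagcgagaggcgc
GTGGGAA lies on the gene's strand from 109 to 103 bases before the start and includes one TGGGAA, and a second TGGGAA lies on the opposite strand from 135 to 130 bases before it. TTCCTNGAA does not occur. A match of letters is a description of the sequence, and binding was not measured.

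The other fringe genes were not called with 79-6. Mfng was 9.81 and 9.55 on the 79-6 arrays, so that its 79-6 and DMSO arrays overlapped (change 0.14, 95% interval -0.08 to 0.37). Rfng was 7.70 and 7.61 on the 79-6 arrays, lower than on both DMSO arrays (change -0.15, 95% interval -0.33 to 0.03). Within arrays, Lfng gained 0.67 on Mfng and 0.97 on Rfng between DMSO and 79-6. Neither difference overlapped between the groups, with SDs in 79-6 of 0.32 and 0.19 and an exact permutation p of 0.333 each, the smallest possible.

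Notch1 and Notch3 were both higher on each 79-6 array than on each DMSO array, but did not pass the threshold. Notch1 differed by 0.21 ± 0.07 (SE, 1.15-fold, 95% interval 0.04 to 0.37, adjusted p = 0.159 by limma). Notch3 differed by 0.28 ± 0.08 (SE, 1.22-fold, 95% interval 0.09 to 0.48, adjusted p = 0.112 by limma). The intervals are of single genes, without adjustment, which is why they leave out 0. Under a trended, robust variance prior both genes were called (adjusted p = 0.0156 for Notch1 and 0.0324 for Notch3), and under the other 12 alternatives neither was. Within arrays the difference between the 2 genes changed by 0.08, with overlapping groups. Notch2 (0.15, 95% interval -0.05 to 0.35), Rbpj (0.01, 95% interval -0.16 to 0.17) and Adam10 (-0.04, 95% interval -0.20 to 0.13) were not called.

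**Figure D2:**
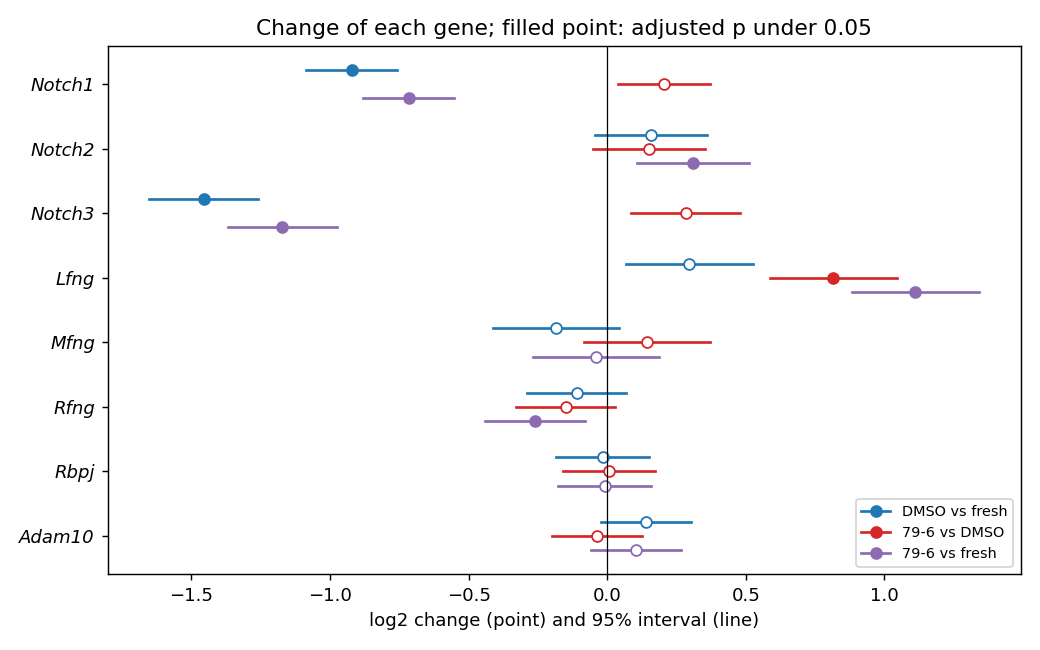
The log2 change of each gene (horizontal axis) is plotted for the 3 comparisons, with a point for the limma estimate, a line for its 95% interval and a filled point for an adjusted p under 0.05. Filled points stand at -0.92 and -1.46 for Notch1 and Notch3 in DMSO against fresh cells and at 0.82 for Lfng in 79-6 against DMSO, and the intervals of Rbpj cross 0 in all 3 comparisons.

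Set against fresh cells, the 79-6 cultures show how far cells kept with the compound stood from the starting cells. This comparison shares its groups with the other two. It called 5 of the 8 genes, against 26.0% of all genes (12.0% higher and 13.9% lower). Notch1 fell by 0.72 (adjusted p = 0.000454 by limma) and Notch3 by 1.17 (adjusted p = 0.000116), which left 60.9% and 44.4% of the fresh intensity. Lfng rose by 1.11 (2.16-fold, adjusted p = 0.000272). These 3 calls held in all 13 alternatives.

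Notch2 rose by 0.31 (adjusted p = 0.0370 by limma) and Rfng fell by 0.26 (adjusted p = 0.0439), and both calls were fragile. That of Notch2 was lost without either fresh array, either DMSO array or 79-6 replicate 2 (adjusted p from 0.0507 to 0.157), and that of Rfng without any one of the 6 arrays (adjusted p from 0.0524 to 0.235), which leaves 3 of 8 genes called in 5 of those fits. Rfng was also not called with the replicate block (adjusted p = 0.0540) or with arrays set to 1 median (-0.23, adjusted p = 0.0818), and in all it lost the call in 11 of 13 alternatives. Mfng (-0.04), Rbpj (-0.01) and Adam10 (0.10) were not called, and the interval of Mfng ran from -0.27 to 0.19. Rbpj has TGGGAA in its promoter too, which is shown for comparison with that of Lfng, since Rbpj was called in no comparison. It lies on the plus strand at chr5:53590096-53590345 (GRCm38.p6, RefSeq), and capitals mark the 2 matches, from 149 to 144 bases before the start on the gene's strand and from 65 to 60 on the opposite one.
Rbpj: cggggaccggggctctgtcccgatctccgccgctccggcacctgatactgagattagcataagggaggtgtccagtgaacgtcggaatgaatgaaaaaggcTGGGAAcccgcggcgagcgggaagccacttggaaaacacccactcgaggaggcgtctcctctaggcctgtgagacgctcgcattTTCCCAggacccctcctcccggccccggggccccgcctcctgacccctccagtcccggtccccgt
A second annotated start of Rbpj shares the later of these matches. The windows of Notch2, Rfng and Adam10 hold none of the 3 sequences, and Mfng was not among the 7 genes with a promoter entry.

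The genes around the 8 in the pathway were described from a list of 57 other components and 10 targets, of which 54 and 10 were measured. Of the 54 components 5 rose and 14 fell from fresh to DMSO, against 19.6% called among all genes, with a median change of -0.03. Of these 19 calls 9 held with each of the 6 arrays left out in turn. Removing fresh replicate 1 left 11 calls and removing fresh replicate 2 left 9, and removing DMSO replicate 1 or 2 left 12 or 11.

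By role the lists are short, and their counts from fresh to DMSO are to be read against the 19.6% of all genes called. Ligand genes fell in 3 of 5 cases: Jag1 by 0.63 (adjusted p = 0.00122), Dll4 by 0.48 (adjusted p = 0.0453) and Jag2 by 0.42 (adjusted p = 0.00715, all by limma). Their mean log2 values in fresh cells were 7.29 (Jag1), 6.99 (Dll4) and 7.36 (Jag2), near or below the median of all gene means (7.13). Dll4 is made chiefly by thymic epithelium, and its call was lost in 5 of 6 fits without 1 array (adjusted p of up to 0.212). Jag2 was no longer called without fresh replicate 2 (adjusted p = 0.0510) or DMSO replicate 1 (0.0528), and Jag1 kept its call without any 1 array. None of the 5 was called with 79-6 against DMSO, where 1 had an unadjusted p under 0.05.

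Among genes that process the receptor, Adam17, a relative of Adam10 that can make the same cut independently of ligand, rose by 0.57 (adjusted p = 0.00247 by limma). The call held without any 1 array. Pofut1 adds the O-fucose that fringe enzymes extend, and its fall of 0.34 (change -0.34, adjusted p = 0.0135) was lost on removing fresh replicate 1, fresh replicate 2 or DMSO replicate 2. Furin, the convertase that first matures the receptor, was not called (-0.19). None of 6 measured gamma-secretase genes was called by limma in any comparison. Their changes from fresh to DMSO lay between -0.12 (Psen2) and 0.18 (Psenen), with 1 unadjusted p under 0.05 there, 0 in 79-6 against DMSO and 2 in 79-6 against fresh. The remaining receptor gene, Notch4, known chiefly from endothelium, was not called either (-0.12).

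Genes for ubiquitin ligases and adaptors of Notch and its ligands went both ways, with 3 of 14 higher and 3 lower in DMSO than in fresh cells. Neurl1b, a ligase for Notch ligands, rose by 0.72, Dtx2, of the deltex family, by 0.53 and Itch, a ligase that targets Notch, by 0.36. Dtx3l (-0.87) and Dtx4 (-0.87), also of the deltex family, and Mib1 (-0.50), the ligase that activates Delta and Jagged ligands for endocytosis, fell. Adjusted p-values of these 6 by limma were between 0.000211 and 0.00997, and the call of Itch was lost without either fresh array or DMSO replicate 2.

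Coactivators of the Notch and Rbpj complex fell in 3 of 8 cases. Maml3, a Mastermind protein, fell by 0.89 (adjusted p = 0.000534 by limma), the acetyltransferase gene Kat2a by 0.64 (adjusted p = 0.000928) and Kat2b by 0.31 (adjusted p = 0.0494). The call of Kat2b was lost without any fresh or DMSO array. Corepressors fell in 3 of 12 cases, near the share of all genes called (19.6%) and with a median change of 0.01: Tle3 (-0.33), Tle4 (-0.27) and Ctbp2 (-0.26), and each of these calls was lost without any fresh or DMSO array. Of the genes for turnover of the intracellular domain, Fbxw7, which marks it for degradation, fell by 0.38 (not called without fresh replicate 2 or DMSO replicate 1, or with the mean of its probe sets, adjusted p = 0.321) and Ccnc rose by 0.36 (lost without any fresh or DMSO array).

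With 79-6 against DMSO, 3 of the 54 components were called, all higher, against 4.36% of all genes: the Mastermind gene Maml2 (0.45, adjusted p = 0.0215 by limma), Dtx4 (0.34, adjusted p = 0.0432) and Tle4 (0.34, adjusted p = 0.0413). Maml2 lost the call without any DMSO or 79-6 array, and Dtx4 and Tle4 without any 1 of the 6 arrays. Of the 54 components 13 had an unadjusted p under 0.05, and the count called ran from 0 with every probe set tested (8 at an unadjusted p under 0.05) to 7 with dim genes left out (4 higher and 3 lower). Against fresh cells 6 components were higher with 79-6 and 13 lower, with Adam17 (0.70) and Kat2a (-0.81) among them, where 26.0% of all genes were called. Of these 19 calls 11 held with each array left out in turn, and removing fresh replicate 1 left 11 calls.

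Target genes fell in 9 of 10 cases from fresh to DMSO with a median of -1.37, Hes5 (0.14) being the exception, where 19.6% of all genes were called. The falls of Hes1 (-1.52), Dtx1 (-1.52) and Ptcra (-1.86) were close to or beyond that of Notch3. The fall of Hey2 (-0.66) was lost without fresh replicate 2 or either DMSO array, and the other 8 held without any 1 array. With 79-6 against DMSO Dtx1, a deltex gene that Notch induces, rose by 1.29 (adjusted p = 0.000588 by limma) and Il2ra by 0.58 (adjusted p = 0.0114), Myc fell by 0.51 (adjusted p = 0.0215), and Hes1 was not called (0.07), so that 3 of 10 were called against 4.36% of all genes. Of these 3 calls that of Dtx1 held without any 1 array, that of Il2ra was lost without either DMSO array, and that of Myc was lost without either DMSO array or 79-6 replicate 2. Against fresh cells 8 of 10 targets were lower with 79-6 (26.0% of all genes called), and Dtx1 was not called (-0.23). The list was written with earlier results of these data in view, so its counts are no independent evidence of direction.

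**Figure D3:**
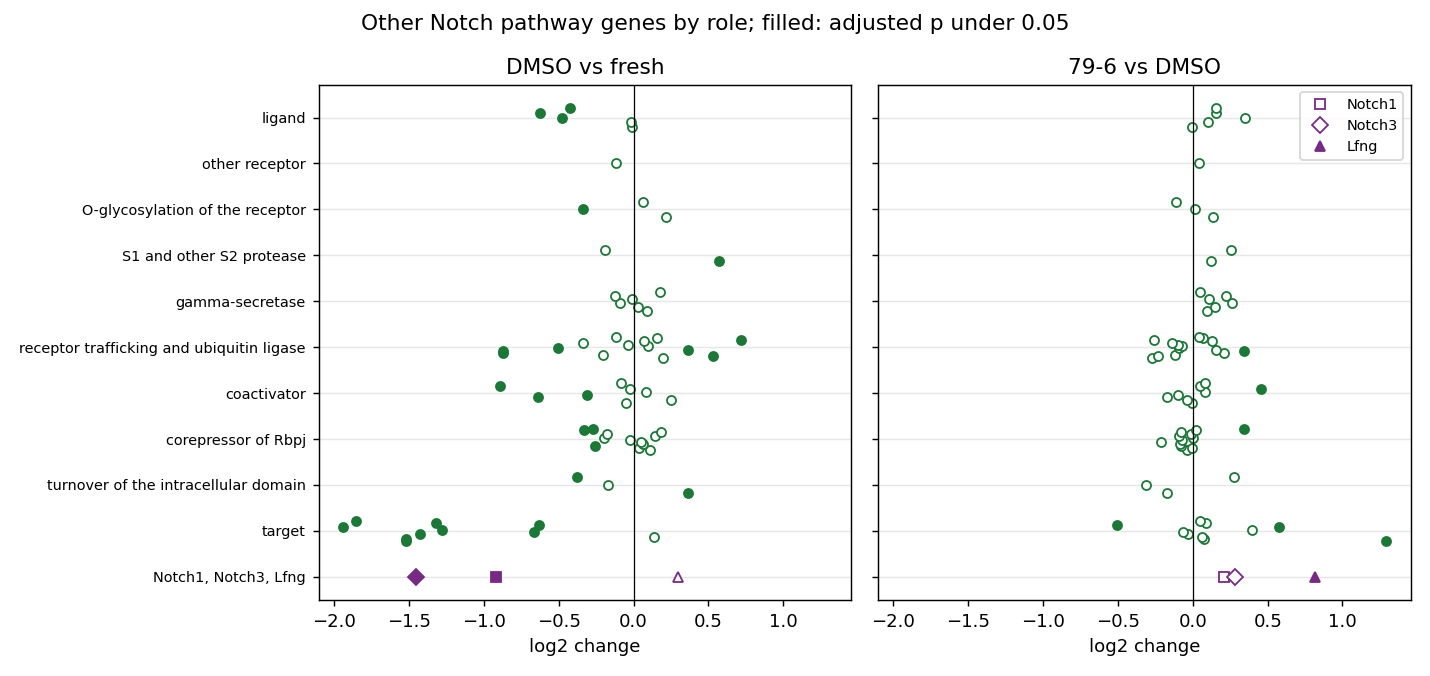
Each point is one measured Notch pathway gene, placed by its log2 change (horizontal axis) and its role (rows), for DMSO against fresh (left) and 79-6 against DMSO (right), and filled points had an adjusted p under 0.05. The lowest row gives Notch1, Notch3 and Lfng. In the left panel 9 of 10 targets lie below 0 and filled, and in the right panel the points lie mostly within 0.5 of 0, with Dtx1 at 1.29 and Lfng at 0.82.

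Genes were also ranked by likeness to Notch1 and Notch3, as the root mean square difference between log2 profiles over the 6 arrays after each gene was centred on its own mean. Closest to Notch1, which itself varied by 0.40 around its mean, was Arhgap23 (0.02; -0.88 in DMSO against fresh and 0.18 in 79-6 against DMSO). Dlk1, a Delta-like protein without the domain that activates Notch (0.03; -0.89 and 0.15), and Tmem229b (0.03; -0.94 and 0.27) followed. Closest to Notch3, which varied by 0.63, were Kcnip3 (0.06; -1.39 and 0.18), the metalloprotease gene Adam19 (0.06; -1.51 and 0.27) and Plscr2 (0.07; -1.51 and 0.36). The points share arrays and groups, and likeness over 6 arrays describes these profiles alone.

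Markers of other cells in the thymus were described as lists, each count to be read against the 19.6% of all genes called from fresh to DMSO. The lists share genes with those above: Dll4 is counted as a ligand and an epithelial marker, and Ptcra and Il2ra as Notch targets and T-lineage markers. In bulk RNA of purified cells, fewer cells of a type and less RNA per cell cannot be told apart. The arrays also do not show which cells made a listed transcript. A change within the thymocytes themselves therefore cannot be told apart from a change in other cells. Thymic epithelial markers fell in 13 of 15 cases from fresh to DMSO, among them Cdh1 (-2.34), Tbata (-1.66) and Krt5 (-1.57), with a list median of -1.23. Their summed intensity was 15331 to 16070 in fresh, 6065 to 8750 in DMSO and 8371 to 8634 in 79-6. Of 11 mesenchymal and mural cell markers 2 fell, Pdgfrb (-1.60) and Rgs5 (-0.74), a share near that of all genes, and the list median was -0.0069. Their summed intensity was 4648 to 5149 in fresh, 3262 to 3725 in DMSO and 3758 to 3813 in 79-6, and it is weighted by its brightest member in fresh cells, Pdgfrb (mean log2 value 11.07 in fresh and 9.47 in DMSO). Rgs5 lost its call without DMSO replicate 1 (adjusted p = 0.0793). Markers of natural killer and innate-lymphoid cells fell in 7 of 9 cases, led by Gzmb (-2.28), Xcl1 (-1.42) and Nkg7 (-1.28), with a list median of -0.95. Of the 15 markers of macrophages and dendritic cells 5 rose, led by Lyz2 (3.88), Adgre1 (1.63) and Itgam (1.55), with a list median of 0.47, and 9 rose without fresh replicate 2. Of 8 endothelial markers 1 rose and 3 fell (Emcn most, adjusted p = 0.00132 by limma), a count of 2 without any one fresh or DMSO array, of 7 B cell markers 2 fell (Ebf1, -1.12; Blk, -0.81), and of 5 erythroid markers 1 rose and 2 fell (Alas2, -2.73). Most members of these 3 lists were dim: 6 of 8 endothelial, 6 of 7 B cell and 3 of 5 erythroid markers had means below the median of all genes. In fresh cells the mean log2 value was 4.33 for Cd79a, 6.76 for Ebf1 and 6.97 for Blk, against 11.13 for Cd79b. The T-lineage list had 5 of 12 members higher, led by Cd2 (3.35) and Cd5 (2.23), and 5 lower, led by Il2ra (-1.94), and its summed intensity went from 63916 to 66349 in fresh to 47733 to 49238 in DMSO and 48214 to 49553 in 79-6. That sum is weighted by bright members such as Il2ra (mean log2 value 13.79 in fresh and 11.85 in DMSO), and the list median was -0.0064. The part of these shifts in the falls of Notch1 and Notch3 was not tested.

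Beside the rise of Lfng with 79-6, 4 of 9 markers of natural killer and innate-lymphoid cells were higher with 79-6 than with DMSO, among them Gzmb (1.13), Nkg7 (1.12) and Klrd1 (0.97), against 4.36% of all genes called in this comparison. The list median was 0.69. Their summed intensity was 4970 to 5037 in DMSO, 8209 to 8221 in 79-6 and 10588 to 12373 in fresh. That sum is weighted by its bright members Nkg7 (mean log2 value 12.06 in fresh and 10.78 in DMSO) and Il7r (11.92 and 10.92). Of 15 macrophage and dendritic cell markers 3 were higher with 79-6, Itgax (1.14), C1qa (0.98) and H2-Aa (0.72), with a list median of 0.45 and summed intensities of 5967 to 9162 in fresh, 18192 to 19088 in DMSO and 23943 to 26689 in 79-6. Nkg7 kept its call without any 1 array. The first count was 1 without DMSO replicate 2 or 79-6 replicate 2 and 2 without DMSO replicate 1 or 79-6 replicate 1. The second was 0 without DMSO replicate 1 or 79-6 replicate 2 (3 at an unadjusted p under 0.05 in each, limma), 1 without DMSO replicate 2 or 79-6 replicate 1, and 7 without either fresh array. Of 12 T-lineage markers 1 was called, Il2ra (0.58, lost without either DMSO array), and the list median was -0.02. By limma 6 of the 12 had an unadjusted p under 0.05. Of these Il2ra and Cd3d (0.19) were higher, and Cd5 (-0.33), Gata3 (-0.32), Cd247 (-0.27) and Bcl11b (-0.20) lower. Of the remaining lists, 1 of 7 B cell markers rose with 79-6 (Cd79b, 0.50, lost without either DMSO array or 79-6 replicate 2). Cd79b had a mean log2 value of 10.88 in DMSO, where Cd79a stood at 4.51. Which cells made Cd79b was not tested. Of 11 mesenchymal and mural markers 1 was called, lower (Pdgfrb, -0.37, lost without any 1 array), while the list median was 0.16. By limma 6 of the 11 had an unadjusted p under 0.05. Of these Lum (0.49), Col1a2 (0.41), Col1a1 (0.35) and Col3a1 (0.23) were higher, and Pdgfrb and Mcam (-0.32) lower. None of 15 epithelial, 8 endothelial and 5 erythroid markers was called by limma, with 4, 1 and 1 at an unadjusted p under 0.05. Their part in the Lfng result was not tested.

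**Figure D4:**
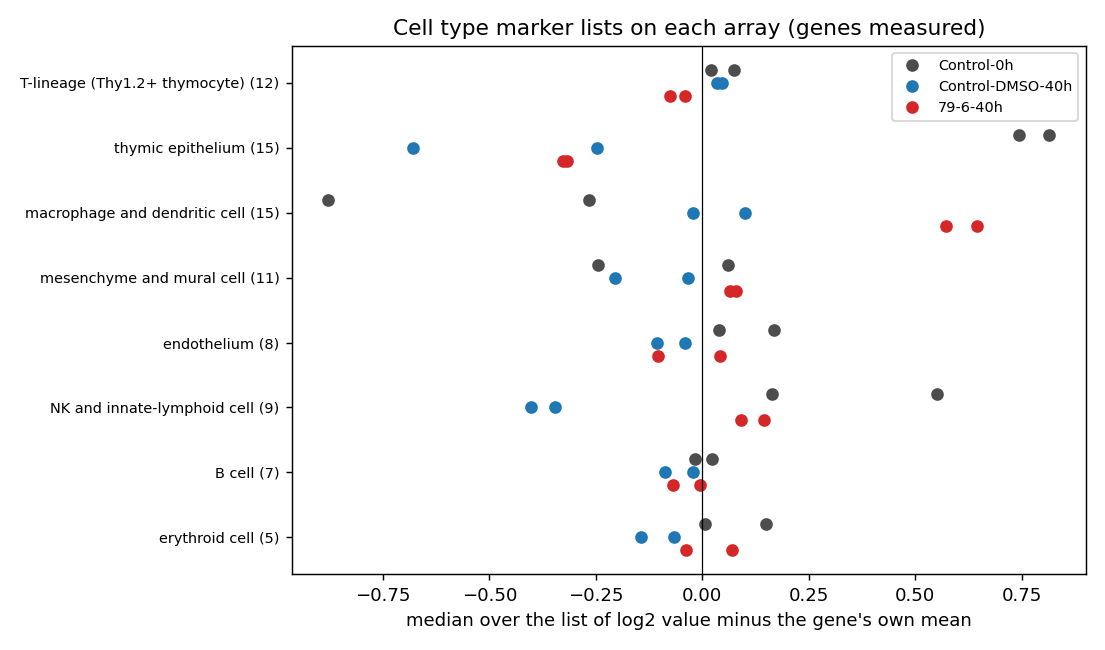
For each marker list (rows, with the number of genes measured) the horizontal axis gives the median over its genes of the log2 value minus the gene's own mean over 6 arrays, with a point for each array coloured by group. Epithelial markers stand at 0.74 and 0.82 on the fresh arrays and below 0 on all cultured arrays, and macrophage and dendritic cell markers stand at 0.57 and 0.64 on the 79-6 arrays, above all other arrays.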

How the data were processed

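RNA of 6 samples was labelled with biotin and hybridised to 1-colour whole-transcript arrays, per the labels. The deposited intensity values are on the linear scale and, per the submitters' processing notes, were made by the authors with RMA in oligo; no version of either is given in the sources used here. RMA corrects background, sets all arrays to one distribution and summarises probes, so changes shared by most genes would not show. The planned test assumed log2 values, and log2 of the deposited intensity was taken here. Of 34760 probe sets, 21640 had 1 gene symbol, 1321 several and 11799 none. Where a gene had several probe sets (954 genes) the brightest was tested. All arrays entered a single fit with a mean for each group (limma 3.58.1, R 4.3.3, lmFit and eBayes; two-sided; Benjamini-Hochberg over 19937 genes; threshold 0.05; 3 residual and 4.24 prior degrees of freedom). The fit was run on simulated data with a common spread for all genes. Its planted changes were larger than any called among the genes followed here, so it does not bear on calls of their size. Deviations of same-numbered arrays correlated at 0.0036, 0.0948 and -0.0740, and no label pairs them.

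Named genes were the 8 above, the called pathway genes with the largest changes (up to 4 per role), the 3 nearest profiles of Notch1 and Notch3, and up to 3 members per marker list; T-lineage levels and further T-lineage changes, and Hes5, Hes1, Notch4, Furin and gamma-secretase genes outside this rule, were picked with their values already in view. The genes and lists were chosen with earlier results of these data known. Counts of pathway and marker lists were run under the same alternatives. Differences between genes were run only with arrays set to 1 median, the mean of a gene's probe sets and each array left out. Both choices were made after seeing the data. Alternatives were a replicate block, arrays set to 1 median, dim genes left out, all probe sets, the mean of a gene's probe sets, 2 groups per fit, a trended and robust prior, and each array left out. Some listed pathway genes and markers were not analysed here. The number of arrays limits the precision.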

Additional observations from a re-analysis of the deposited data

How the results depend on the processing

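Among the 8 genes, the falls of Notch1 and Notch3 from fresh to DMSO kept their call and direction in all 13 alternatives, as did both falls and the rise of Lfng in 79-6 against fresh. The replicate block, run although no label pairs the arrays, gave 3667, 774 and 4852 genes called in the comparisons of DMSO with fresh, 79-6 with DMSO and 79-6 with fresh (3902, 869 and 5174 without it), and of the 8 genes 2, 1 and 4. It ended the call of Rfng in 79-6 against fresh (adjusted p = 0.0540 by limma) and no other call among the 8. In 79-6 against DMSO the genes called numbered 1547 with dim genes left out, 88 with every probe set tested and 1723 with the trended, robust prior. Of the 8 genes 0 were called there with every probe set tested (3 at an unadjusted p under 0.05, limma) and 3 with the trended, robust prior. In 79-6 against fresh 3 of the 8 were called with every probe set tested and 3 with only the compared groups in the fit. With each array left out in turn, which leaves 1 array in a group that is assumed to vary like the others, all genes called ranged from 2286 to 4070 for DMSO against fresh (up to 2382 without any fresh or DMSO array), from 93 to 661 for 79-6 against DMSO (lowest without DMSO replicate 2, 113 without DMSO replicate 1 and 127 without 79-6 replicate 2) and from 3081 to 5068 for 79-6 against fresh (3081 and 3321 without fresh replicates 1 and 2). Of the 8 genes 0 to 1 were called in 79-6 against DMSO, with 0 without DMSO replicate 2 (2 at an unadjusted p under 0.05) or 79-6 replicate 2 (3 at an unadjusted p under 0.05), and 3 to 4 in 79-6 against fresh. Arrays set to 1 median turned the sign of Rbpj, which was never called, to 0.0247 for DMSO against fresh, to -0.0042 for 79-6 against DMSO and to 0.0205 for 79-6 against fresh, and the mean of its probe sets gave -0.0169 in 79-6 against DMSO. Without single arrays Rbpj ran from -0.0477 to 0.0163, from -0.0269 to 0.0395 and from -0.0426 to 0.0238 in the 3 comparisons, and Mfng from -0.1723 to 0.0921 in 79-6 against fresh. The causes of these shifts were not tested. Scaling also turned the larger direction over all genes from 1773 higher and 2129 lower to 2155 higher and 1822 lower in DMSO against fresh, and from 2401 and 2773 to 2978 and 2504 in 79-6 against fresh. Dim genes left out turned 475 higher and 394 lower in 79-6 against DMSO to 690 and 857.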

Other observations

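The profiles nearest to that of Lfng over the 6 arrays, looked up after its values were seen, were those of Plaur, the urokinase receptor gene (0.18 in DMSO against fresh and 0.90 in 79-6 against DMSO), Ripor2 (0.17 and 0.88) and the annexin gene Anxa6 (0.29 and 0.73), at root mean square differences of 0.06, 0.08 and 0.08 on the log2 scale.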
